A study of Mus musculus with 58 samples.

Results

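Expression of 37 genes of the cell cycle and of DNA replication was described in lung, liver and forestomach of mice exposed to benz(a)anthracene (BaA), a carcinogenic combustion product. The genes were chosen by name, out of 20018 genes with a probe on the array, and fall into 5 roles: 9 genes of origin licensing and the MCM helicase, 5 of the replication fork and nucleotide supply, 7 cyclins and kinases (with Cdk1 and the checkpoint kinase Chek1), 9 of the mitotic kinases, the spindle checkpoint and the anaphase-promoting complex (APC/C), and 7 of centromeres, spindle motors and chromosome structure. Male Muta™Mouse, a strain that carries a bacterial lacZ reporter in every group including the controls, were about 10 weeks old and were gavaged daily for 28 days with olive oil alone (D0) or with BaA in olive oil. The daily BaA dose per kg of body weight was 20 mg in group D1, 40 mg in D2 and 80 mg in D3. Tissue was taken 72 h after the last dose. The 58 arrays came from 20 mice in 12 groups of 4 to 5 arrays: lung of all 20 mice, liver of all but mouse 20 (D3), and forestomach of all but mouse 5 (D0), those being not analysed here. Mice 1 to 5 were D0, 6 to 10 D1, 11 to 15 D2 and 16 to 20 D3, and each array held RNA of 1 mouse, so that replicates are separate animals.

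Cells copy their DNA once per division. In G1 the MCM helicase, a ring of Mcm2, Mcm3, Mcm4, Mcm5, Mcm6 and Mcm7, is loaded onto replication origins with the help of Cdc6 and Cdt1, and in S phase it is activated together with the GINS complex and unwinds DNA ahead of the polymerases. E2F factors drive many of these S phase genes, while cyclin B, Cdk1 and the mitotic genes are switched on later through promoters with a cell cycle homology region (CHR) and NF-Y boxes. Transcripts of the mitotic group are therefore used as markers of dividing cells. In the adult, few hepatocytes and few lung cells divide, whereas the squamous epithelium of the forestomach is renewed continuously from its basal layer.

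Promoters of 31 of the 37 genes were matched by symbol in a RefSeq table (GRCm38.p6; 250 bases before to 50 after each start). An E2F site (spelled TTTCCCGC or TTTGGCGC or TTTCGCGC or TTTGCCGC, on either strand) lay in 7 of the 31 (22.6%) and in 629 of all 27024 promoters (2.3%). A CHR (TTTGAA or TTTAAA) lay in 21 (67.7%, against 27.9% of all promoters), and an NF-Y box (CCAAT) in 24 (77.4%, against 38.0%). The roles differed in what they held: 6 of 7 licensing promoters had an E2F site and 2 of 7 a CHR, whereas 0 of 8 promoters of the mitotic kinase, spindle checkpoint and APC/C group had the E2F site and 7 of 8 a CHR. These are matches of letters in a window, with no measurement of binding. The 200 bases before the start are shown for Mcm6, the only member called between a dose group and D0, for Cdk1, which holds both kinds of site, and for the mitotic genes Cdc20 and Ccnb1. All 4 are written 5′ to 3′ along the minus strand, which is the strand of the gene. Capitals mark E2F sites (the first TTTGGCGC of Mcm6 overlaps GCGCGAAA, which is TTTCGCGC on the other strand), CHRs and NF-Y boxes (CCAAT, which reads ATTGG on the other strand).
Mcm6 promoter, chr1:128359706-128359905: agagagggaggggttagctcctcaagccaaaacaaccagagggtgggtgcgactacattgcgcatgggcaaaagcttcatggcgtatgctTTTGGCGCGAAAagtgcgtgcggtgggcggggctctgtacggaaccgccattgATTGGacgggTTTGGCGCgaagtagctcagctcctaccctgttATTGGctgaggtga
Cdk1 promoter, chr10:69352913-69353112: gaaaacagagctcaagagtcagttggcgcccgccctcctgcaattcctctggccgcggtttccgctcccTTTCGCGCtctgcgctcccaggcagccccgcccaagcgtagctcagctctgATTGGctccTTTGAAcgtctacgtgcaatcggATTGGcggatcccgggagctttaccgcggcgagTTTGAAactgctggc
Cdc20 promoter, chr4:118437344-118437543: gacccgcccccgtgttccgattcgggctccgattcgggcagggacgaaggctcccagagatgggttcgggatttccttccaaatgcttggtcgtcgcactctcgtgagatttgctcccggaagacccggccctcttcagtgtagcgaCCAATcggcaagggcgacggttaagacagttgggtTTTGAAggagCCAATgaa
Ccnb1 promoter, chr13:100786487-100786686: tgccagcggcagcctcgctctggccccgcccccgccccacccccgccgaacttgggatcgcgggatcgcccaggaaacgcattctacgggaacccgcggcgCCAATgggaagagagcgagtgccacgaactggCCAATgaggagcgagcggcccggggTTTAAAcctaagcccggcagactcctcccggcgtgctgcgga

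Each value is the log2 ratio of a probe's signal in tissue RNA (Cy5) to that in a reference RNA pooled from 11 mouse cell lines (Cy3). A value of -3 thus means a signal 3 log2 units below the reference, and levels are compared between arrays but not between genes. Probes were tested in a tissue where the scanner software called them well above background on 4 or more arrays, with 1 main probe per gene. By this rule 34 genes were tested in lung, 30 in liver and 35 in forestomach, 30 of them in all 3 tissues. Aurkb, the kinase of the chromosomal passenger complex, and Ccne2, a cyclin of the G1 to S transition, were tested in no tissue. Bub1, Cdc6, Cdk1 and Kif11 failed in liver, and Chek1, a kinase that halts the cycle when replication forks stall, passed in forestomach alone. Nearest to the limit were Bub1b in liver and Chek1 in forestomach, on 4 arrays each, and just below it were Kif11 in liver and Chek1 in lung, on 1 array each. Other genes tested in liver were also dim on most of its arrays. Top2a was detected there 5 times, Cenpe 6 times and Ccnb1 9 times, and Mcm2 and Tyms mainly on slide 1. Depth on an array is its signal over background, and the share of gene spots well above background was 44.4% to 55.2% on the lung arrays. It was 34.1% to 45.7% on liver arrays and 38.4% to 69.2% on those of forestomach.

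Markers of the labelled tissues were high where they should be. The mean log2 ratio over 6 lung epithelium markers was 6.88 to 7.28 on the lung arrays, that over 7 hepatocyte markers 6.93 to 7.62 on the liver arrays, and that over 8 squamous epithelium markers 3.34 to 4.29 on the forestomach arrays. Some arrays also held markers of other tissue. The 9 glandular stomach markers averaged 5.12 to 6.38 on 10 of 19 forestomach arrays (1 of 4 at D0, 5 of 5 at D1, 2 of 5 at D2 and 2 of 5 at D3) and 0.658 to 2.92 on the other 9. The 7 hepatocyte markers averaged 0.400 to 3.104 on the 19 forestomach arrays, with all 7 well above background on 6 of them, and their part in the forestomach results was not tested. In lung, squamous markers averaged 3.31 for mouse 5 (D0) and 1.53 for mouse 16 (D3), and T cell markers 1.59 for mouse 17 (D3). Each of the 9 slides held a single tissue, so differences between tissues and between slides cannot be told apart, whereas doses were spread over the 3 slides of each tissue. Whole-tissue RNA was measured: fewer dividing cells and less RNA per cell cannot be told apart in any result below.

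The question of where these genes are expressed without BaA was asked of the D0 arrays. Forestomach was higher than lung for most members: of 34 tested, 21 were higher by at least 1.5-fold at an adjusted p of at most 0.05 and 0 were lower, while over all probes tested 14.9% were higher and 16.8% lower. The median difference over the members was 0.80 on the log2 scale, against 0.03 over all probes. In 23 of the 34 genes every forestomach array lay above every lung array. That count was not made over all probes, so whether it exceeds their share is not known. All 7 genes of centromeres, motors and chromosome structure were higher in forestomach, with differences of 0.78 to 1.47, and so were 5 of 8 mitotic kinase and APC/C genes and 4 of 5 cyclin and kinase genes. Only 2 of 5 fork genes and 3 of 9 licensing genes passed.

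Cdca8 encodes borealin, a subunit of the chromosomal passenger complex that corrects faulty spindle attachments. Its log2 ratios were -1.34, -1.85, -1.54 and -1.23 in forestomach of mice 1 to 4 and -3.33, -3.30, -3.31, -2.96 and -2.71 in lung of mice 1 to 5. The tissues did not overlap, and the difference was 1.63 (SE 0.15, 3.1-fold, adjusted p = 2.07e-13). Birc5, survivin, belongs to the same complex and differed by 1.43 (SE 0.26, adjusted p = 5.85e-06). Rrm2, the small subunit of ribonucleotide reductase that sets the supply of deoxynucleotides, read -2.60, -2.85, -2.18 and -2.36 in forestomach. In lung it read -4.30, -4.32, -3.63, -3.85 and -4.16, so that again no array overlapped, and the difference was 1.55 (SE 0.22, adjusted p = 5.1e-08). Cenpe, a motor that moves chromosomes to the spindle equator, differed by 1.47 (SE 0.25, adjusted p = 1.13e-06), with mouse 3 the lowest forestomach array at -3.58 and mouse 5 the highest lung array at -3.96.

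Transcripts of the fork and helicase genes did not follow those of the mitotic genes throughout. Pcna, the sliding clamp of the DNA polymerases, was on the lower side in forestomach, by -0.45 (SE 0.10, 1.37-fold, adjusted p = 0.000136), short of the minimum fold. Its ratios were -2.47, -2.42, -2.12 and -2.29 in forestomach and -1.74, -1.80, -1.86, -1.87 and -2.12 in lung, with the 2 tissues meeting at -2.12. Mcm4, a helicase subunit, likewise differed by -0.34 (SE 0.10, adjusted p = 0.00309). These were the only members with a value below 0, and both were picked out here after their values were seen. Cdc6, a loader of the helicase, had the smallest difference, 0.13 (SE 0.28, adjusted p = 0.723). Scaling bore on the low side: all 34 differences were above 0 when the arrays were centred on their medians in place of LOWESS, which took the median over all probes from 0.03 to 0.38.

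Against liver, forestomach was higher for 23 of 30 members and lower for 1, where 21.6% of all probes were higher and 23.5% lower. The median over the members was 0.92, against -0.08 over all probes. Every forestomach array exceeded every liver array for 24 genes, again without a count over all probes, so that the share to expect is not known. Mki67, the coat protein of mitotic chromosomes that is stained as Ki-67 to find dividing cells, read -2.48, -2.83, -3.03 and -2.33 in forestomach. It read -5.09, -5.55, -5.05, -5.33 and -5.24 in liver, a difference of 2.58 (SE 0.23, 6.00-fold, adjusted p = 1.35e-14). Lung lay between them, from -4.15 to -3.48.

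Mcm6, a subunit of the replicative helicase, showed the largest difference between forestomach and liver, 2.86 (SE 0.28, 7.26-fold, adjusted p = 8.12e-13). Mki67 came next, followed by Birc5 at 2.49 (SE 0.26) and Rrm2 at 2.46 (SE 0.22). A second Birc5 probe gave a smaller difference of 0.78, which was also called. The exception was Gins1, a subunit of the GINS complex that switches the helicase on, which was lower in forestomach by -0.59 (SE 0.14, 1.5-fold, adjusted p = 0.000253). It read -2.60, -2.25, -2.24 and -2.39 in forestomach and -1.84, -1.87, -1.70, -1.50 and -1.98 in liver without overlap, but the sign turned to 0.43 with median centring. The difference also fell below the minimum fold without mouse 1 (-0.53) or mouse 4 (-0.51), and with the LOWESS of the median signals (-0.48) or normexp (-0.49). Plk1, a mitotic kinase, had the smallest difference at 0.07 (SE 0.20, adjusted p = 0.766).

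Lung and liver differed in both directions. Of 30 members, 11 were higher in lung and 3 higher in liver, where 25.5% of all probes were higher and 26.0% lower in lung. Their median difference was 0.33, against -0.08 over all probes. The genes higher in lung were led by helicase, clamp and nucleotide genes. Mcm4 read -1.90, -1.88, -1.84, -2.12 and -2.05 in lung and -4.27, -4.26, -3.81, -4.09 and -4.25 in liver, a gap of 2.18 (SE 0.09, 4.53-fold, adjusted p = 8.71e-27). Mcm6 differed by 2.16 (SE 0.27), Mki67 by 1.36 (SE 0.21), Rrm1, the large subunit of ribonucleotide reductase, by 1.36 (SE 0.11) and Pcna by 1.35 (SE 0.09).

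The 3 genes higher in liver came from 3 roles. Gins1 read -3.63 to -3.08 in lung against -1.98 to -1.50 in liver (difference -1.60, SE 0.13, adjusted p = 1.5e-15). Tk1, the cytosolic thymidine kinase of the salvage pathway, read -2.42, -2.41, -2.21, -2.07 and -2.01 in lung. In liver it read -0.69, -0.83, -0.76, -0.67 and -1.33, the last from mouse 5, and the difference was -1.37 (SE 0.16, adjusted p = 4.27e-11). Cdca8 was the remaining gene, at -0.93 (SE 0.14), and its other probe gave -0.88. Birc5 was called higher in lung, by 1.06, while its second probe gave -0.39, the only member whose probes had opposite signs between these tissues. Plk1 again showed the smallest difference, -0.10 (adjusted p = 0.630).

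**Figure D1:**
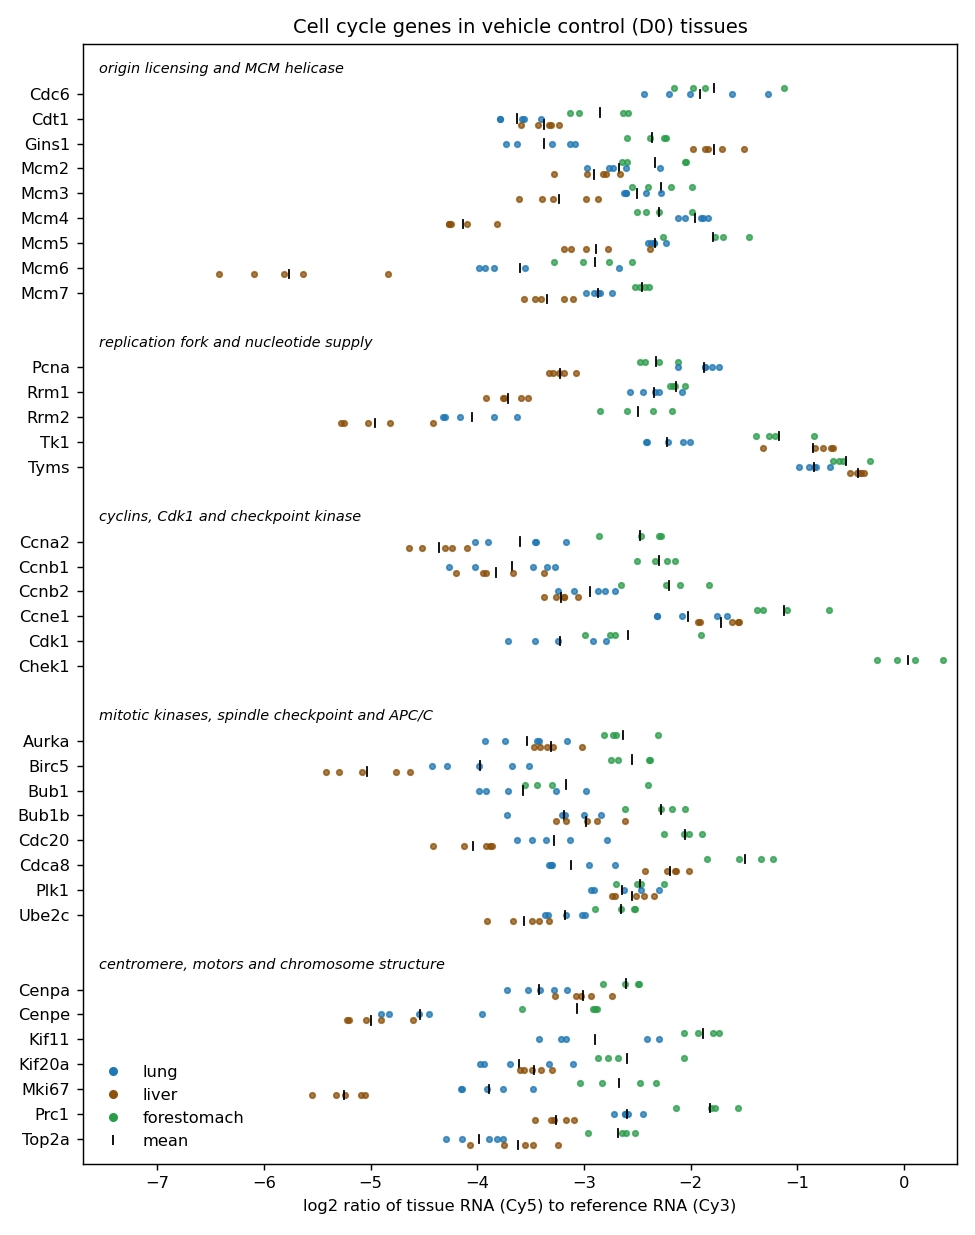
Log2 ratios of tissue to reference RNA (x axis) for each tested gene (rows, grouped by role) on the vehicle control arrays, 1 point per mouse, with lung in blue, liver in brown, forestomach in green and a black bar at each mean. The green points lie farthest right for most mitotic genes, and Gins1 and Tk1 have their brown points on the right.

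Ordered by D0 mean, 16 of the 30 genes tested everywhere ran forestomach, lung, liver from high to low and 9 ran forestomach, liver, lung. Another 3 had liver highest (Gins1, Tk1 and the thymidylate synthase gene Tyms), and 2 had lung highest (Pcna and Mcm4). Forestomach and liver do not differ beyond their test for Tk1 (-0.32, adjusted p = 0.0797) and Tyms (-0.11, adjusted p = 0.312). The Tyms probe was mostly dim in liver: slide 1 detected it 6 times, slide 2 0 times and slide 3 1 time. Its first place in liver thus rests largely on dim signal and does not show a higher level there. For genes dim on every D0 liver array, mean Cy5 signals were compared without a test. Cdk1, the kinase that starts mitosis, read 1.87-fold higher in forestomach than in liver, Kif11 1.2-fold and Cdc6 1.03-fold. Bub1 and Chek1 allowed no fold. These 3 genes were well above background on 3 of 4 D0 forestomach arrays. By mean log2 ratio over all doses, liver lay above forestomach for Cdk1 (-1.90 against -2.49) and Cdc6 (-1.15 against -1.74), and below it for Kif11 (-2.06 against -1.91). Cdk1 and Cdc6 were well above background on 0 liver arrays of each slide. Their liver ratios are thus ratios of background signal and do not show a higher level in liver.

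In lung, 1 of the 34 members rose past the threshold with BaA, Mcm6 at D3, and the values of the other helicase subunits lay on the same side. At D3 all 9 licensing genes had differences above 0 (median 0.34), where 49.9% of all probes lay above 0. The sign held under each of the 6 scalings tried, which rework the same arrays and are not separate support. Median centring put the median over all probes at 0.15. Of all probes 1.75% were called at D3, 0.490% at D2 and 0.00329% at D1. A single call among 34 members at D3 was thus not a share clearly above the background. Counted over all 34 members, 1 was called at D3 (9 had an unadjusted p below 0.05), 0 at D2 (4) and 0 at D1 (1). Of all 30383 probes tested, 7131 had an unadjusted p below 0.05 at D3, 4823 at D2 and 2246 at D1. The median over the members was 0.01 at D1, -0.15 at D2 and 0.05 at D3.

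Mcm6 read -3.99, -3.93, -3.55, -2.67 and -3.84 at D0. It read -3.81, -2.29, -3.99, -3.03 and -3.04 at D1, then -2.97, -2.48, -2.60, -2.55 and -3.0 at D2, and -2.52, -2.62, -2.82, -2.10 and -2.65 at D3. Of the D0 arrays 4 were below every D2 and D3 array, and mouse 4 was within their range. The differences from D0 were 0.37 at D1 (adjusted p = 0.821), 0.88 at D2 (adjusted p = 0.103) and 1.05 at D3 (SE 0.27, 2.08-fold, adjusted p = 0.0199). The D3 difference was 0.52 within slide 1, 1.45 within slide 2 (1 array against 1) and 1.39 within slide 3. It fell short of the threshold without D0 mouse 2 (0.97, adjusted p = 0.0518), without D3 mouse 19 (0.94, adjusted p = 0.062), without the 3 lung arrays that held squamous or high T cell markers (1.01, adjusted p = 0.126) and with median centring (1.19, adjusted p = 0.911).

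Mcm7, another subunit of the ring, varied less between mice. Its ratios were -2.87, -2.98, -2.73, -2.85 and -2.91 at D0, -2.70, -2.47, -2.90, -2.73 and -2.83 at D1, -2.53, -2.48, -2.58, -2.56 and -2.53 at D2, and -2.47, -2.42, -2.53, -2.21 and -2.50 at D3. Every D2 and D3 array lay above every D0 array. The differences were 0.33 at D2 (SE 0.08, adjusted p = 0.0332) and 0.44 at D3 (SE 0.08, adjusted p = 0.00205), which at 1.26-fold and 1.36-fold stayed below the minimum fold. Mcm4 differed by 0.35 at D3 (SE 0.09, adjusted p = 0.0152, 1.28-fold), with the D3 arrays at -1.71, -1.58, -1.75, -1.31 and -1.68, each above the highest D0 array at -1.84. Within the 3 slides the D3 differences were 0.37, 0.53 and 0.48 for Mcm7 and 0.37, 0.53 and 0.25 for Mcm4. Of the other licensing genes, Cdt1 gave 0.40 (adjusted p = 0.0589), Mcm2 0.34 (adjusted p = 0.142) and Mcm3 0.24 (adjusted p = 0.123).

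**Figure D2:**
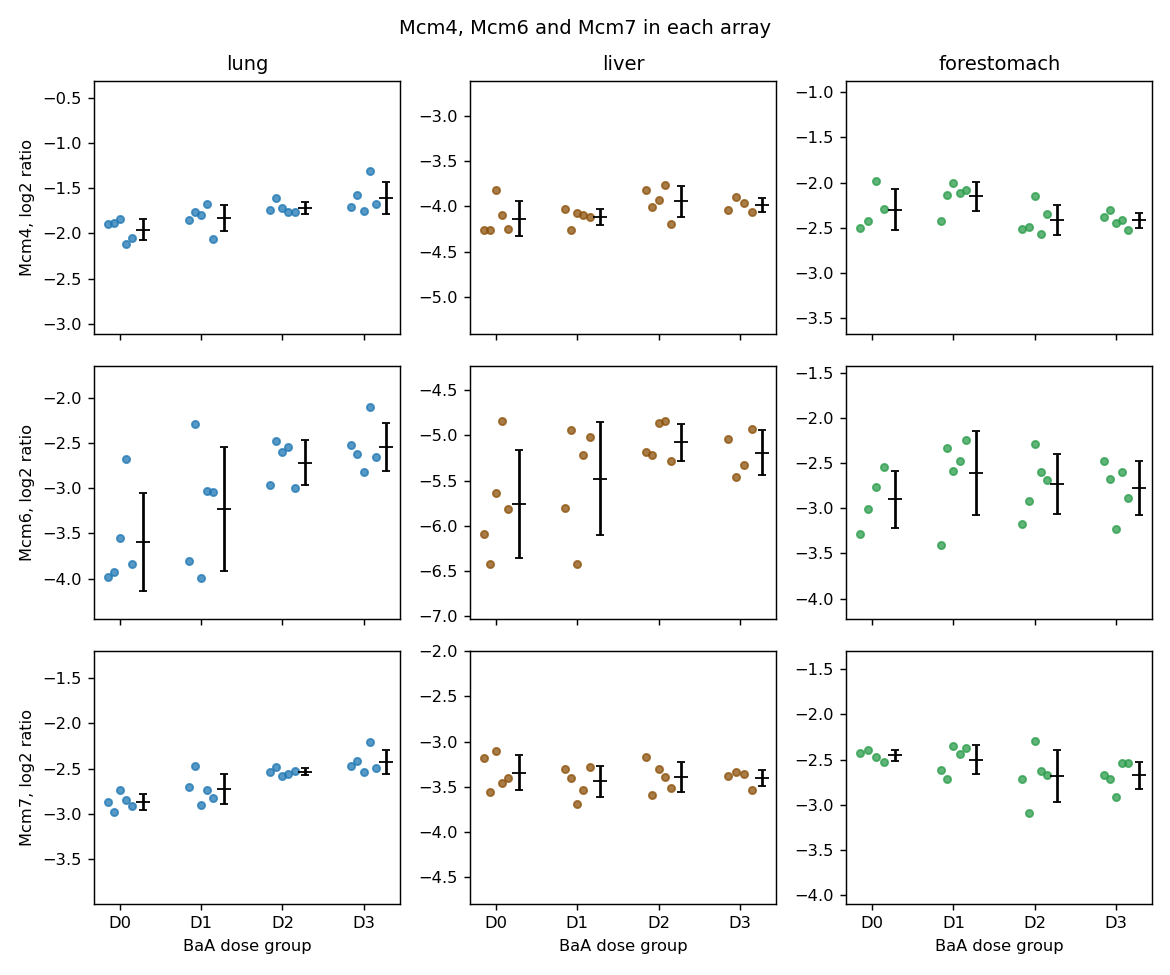
Log2 ratios of Mcm4, Mcm6 and Mcm7 (rows) in lung, liver and forestomach (columns) by BaA dose group, 1 point per mouse, with the mean ± SD beside each group (n = 4 to 5). All panels span the same number of log2 units. In lung the D3 points of Mcm4 and Mcm7 lie above all D0 points, and for Mcm6 the D0 mouse at -2.67 reaches into the D3 range.

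A slope on dose was called in lung for Mcm6 (0.0132 log2 units per mg/kg-bw/day, adjusted p = 0.0116), Mcm7 (0.0056, adjusted p = 0.00103) and Mcm4 (0.0043, adjusted p = 0.00797). These 3 of 34 stand beside 11.0% of all probes with a called slope, so the share of members was not above the background. With slide as a block Cdt1 and Mcm2 joined them, as they did when D1 mouse 7 or D3 mouse 16 was left out. Without the 3 arrays that held squamous or high T cell markers, Mcm4 and Mcm7 kept a called slope, and that of Mcm6 was as large as before, at 0.0135, with an adjusted p of 0.0607. With median centring no slope was called, while the slope of Mcm6 was 0.0145 (adjusted p = 0.804).

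The mitotic genes gave no call in lung at any dose. At D2 the 8 genes of the mitotic kinase, spindle checkpoint and APC/C group all had differences below 0 (median -0.25), as had the 7 centromere and motor genes (median -0.15) and the 5 cyclin and kinase genes (median -0.28), but with median centring all of these were above 0, and that scaling moved the median over all probes by 0.37. Ccnb1, cyclin B1, which activates Cdk1 at the entry to mitosis, gave the lowest value at D2, -0.48 (SE 0.20, adjusted p = 0.250; 0.15 with median centring), and at D3, -0.36 (adjusted p = 0.294). It read -4.03, -4.26, -3.48, -3.35 and -3.27 at D0 and -3.90, -4.25, -4.26, -4.25 and -4.12 at D2, with the groups overlapping. On lung slides 1, 2 and 3 Ccnb1 averaged -3.71, -4.03 and -4.03, and Kif11 -2.60, -3.24 and -3.33. Slide 1 held 2 D0 arrays, mice 4 and 5, and 1 D2 array. With slide as a block the D2 value of Ccnb1 kept its direction and was not called. Next were the spindle motor gene Kif11 at D2 (-0.37, adjusted p = 0.481) and the spindle pole kinase gene Aurka at D3 (-0.27, adjusted p = 0.315). At D1 the extremes were Cdk1 (-0.14, adjusted p = 0.934) and the midzone protein gene Prc1 (-0.13, adjusted p = 0.895) on the low side and Mcm6 and Cdt1 (0.25, adjusted p = 0.709) on the high side.

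A single lung array stood apart at D1. Mouse 7, on slide 1, was the highest of the 20 lung arrays for 26 of 34 members, with a median over the members of -2.45 where the others ran from -3.53 to -2.82. For Ccna2, cyclin A2 of S phase and G2, it read -2.21 and the others -4.27 to -3.17. Without it the D1 median over the members was -0.15 in place of 0.01. B cell markers were also higher in lung at D2 and D3 than at D0, most at D2. Over 6 genes their mean was 0.370 to 0.794 at D0, 0.541 to 1.13 at D1, 1.03 to 1.55 at D2 and 0.818 to 1.04 at D3. At D2 4 of 6 were called higher and at D3 2 of 6, beside 125 and 352 of all 30383 probes. On each array 5 to 6 of the 6 markers were well above background. Their part in the helicase differences was not tested.

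**Figure D3:**
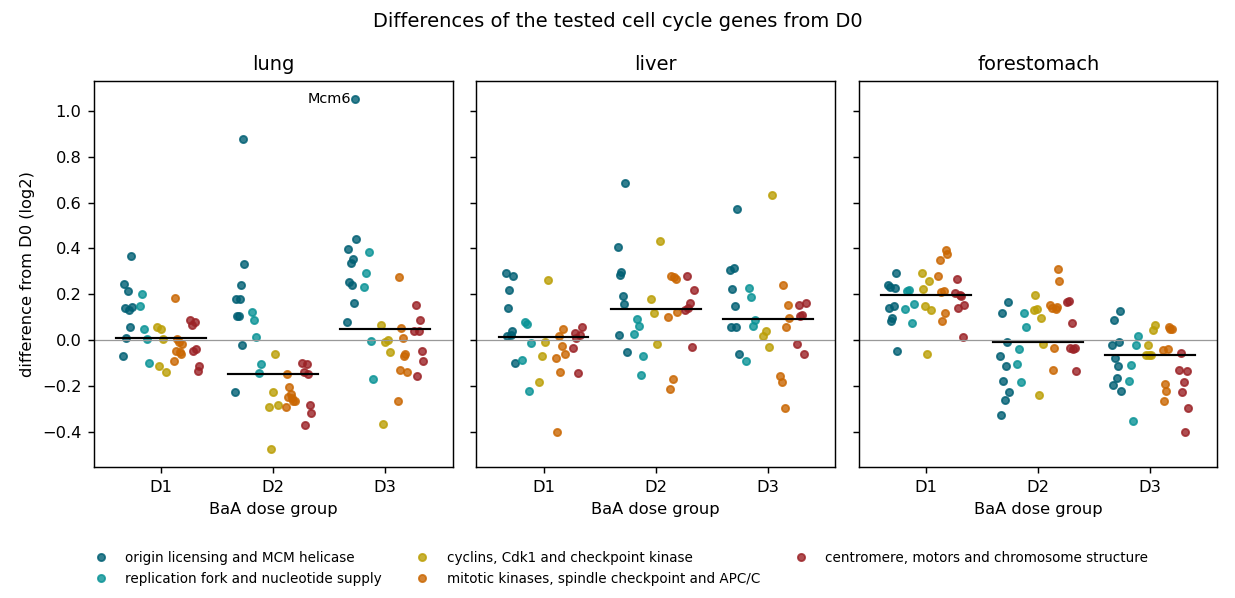
Difference of each tested gene from D0 (y axis, log2) at each BaA dose (x axis) in lung, liver and forestomach, 1 point per gene coloured by role, with a black line at the median of all tested members. Mcm6 at D3 in lung is the only gene named as called, and the licensing genes, the leftmost column of points, lie above 0 there.

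The D3 effects of each pair of tissues were set against each other in a single fit. Mcm7 was the only member called: its D3 effect in forestomach was lower than that in lung by -0.66 (SE 0.15, adjusted p = 0.0207), where 0.246% of all probes were called. Its forestomach ratios were -2.43, -2.39, -2.47 and -2.52 at D0 and -2.67, -2.71, -2.91, -2.54 and -2.54 at D3, so each D3 array lay below each D0 array, and the difference there was -0.22 (SE 0.13, adjusted p = 0.9995). The call was lost when any 1 of mice 1, 2, 4, 17, 18 or 19 was left out (adjusted p from 0.0503 to 0.0777), without the 3 lung arrays with squamous or high T cell markers (adjusted p = 0.072) and with median centring. Without the forestomach arrays that held glandular markers it was -0.73 (adjusted p = 0.0358). Between lung and liver Mcm7 differed by 0.50 (adjusted p = 0.0437), under the minimum fold. There 0 members were called (3 at an unadjusted p below 0.05), beside 2.04% of all probes (3139 of 21868 unadjusted). Between forestomach and liver 0 members were called (4 unadjusted), beside 0.0227% of all probes (1588 of 22074 unadjusted). For Mcm6 the tissues' D3 effects were not shown to differ (forestomach minus lung -0.93, SE 0.39, adjusted p = 0.457).

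The same mice were low in Mcm6 in lung and in liver. The 6 mice with the lowest Mcm6 in lung, mice 1, 2, 3 and 5 of D0 and mice 6 and 8 of D1, were the 6 lowest in liver. In lung they ran from -3.99 to -3.55 and the remaining mice from -3.04 to -2.10. In liver they ran from -6.42 to -5.63 and the other 13 from -5.46 to -4.84. Of the D0 mice, mouse 4 was high in both, at -2.67 and -4.84. Forestomach did not separate them: 5 of the 6 read -3.40 to -2.59 there and the other mice -3.23 to -2.25. Among the 30 members tested in lung and liver, Mcm6 was the only gene with all 6 lowest mice shared, whereas Aurka, Mcm3 and Mcm4 shared 4 and the other 26 shared 1 to 3. The 2 tissues were on different slides. This is a description over the same 19 mice, picked out after the values were seen, and it includes the dose difference itself.

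**Figure D4:**
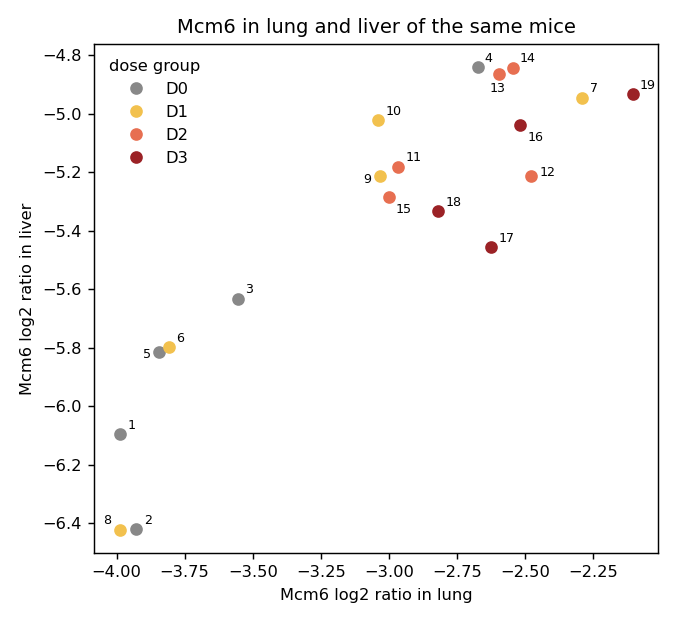
Mcm6 log2 ratio in lung (x axis) against liver (y axis) for the 19 mice with both tissues, coloured by BaA dose group and labelled with the mouse number. Mice 1, 2, 3, 5, 6 and 8 form the lower left of the plot, with lung at -3.99 to -3.55 and liver at -6.42 to -5.63.

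In liver no member was called at any dose. The counts were 0 of 30 at D1 (2 at an unadjusted p below 0.05), 0 at D2 (4) and 0 at D3 (3), while 0.241%, 0.483% and 0.395% of all probes were called. Of all 22789 probes, 1745, 3093 and 3595 had an unadjusted p below 0.05 at D1, D2 and D3. The slope on dose was called for 0 of 30 members (4 unadjusted), beside 0.908% of all probes (3636 of 22789 unadjusted). The median over the members was 0.01 at D1, 0.14 at D2 and 0.09 at D3. At D2 23 of 30 lay above 0, a count that fell to 11 with Agilent's processed signals and to 5 with median centring.

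The largest values in liver belonged to Mcm6 and to Ccne1, cyclin E1, which drives cells from G1 into S phase with Cdk2. Mcm6 read -6.09, -6.42, -5.63, -4.84 and -5.82 at D0, -5.80, -4.94, -6.42, -5.21 and -5.02 at D1, -5.18, -5.21, -4.86, -4.84 and -5.28 at D2, and -5.04, -5.46, -5.33 and -4.93 at D3. All but mouse 4 of the D0 arrays lay below every D2 and D3 array, and the differences were 0.28 at D1 (adjusted p = 0.915), 0.68 at D2 (adjusted p = 0.262) and 0.57 at D3 (adjusted p = 0.346). Ccne1 read -1.91, -1.93, -1.62, -1.54 and -1.56 at D0 and -1.59, -1.30, -1.01 and -0.41 at D3. The groups overlapped through mouse 16 at -1.59, and the difference was 0.64 (SE 0.23, adjusted p = 0.183), after 0.43 at D2 (adjusted p = 0.401).

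On the low side in liver were Birc5 at D1 (-0.40, SE 0.13, adjusted p = 0.357), at D2 (-0.21, adjusted p = 0.517) and at D3 (-0.18, adjusted p = 0.588), and Cdc20, the activator of the APC/C, at D2 (-0.17, adjusted p = 0.694) and D3 (-0.29, adjusted p = 0.431). The D3 value of Birc5 became 0.03 when all its probes were averaged. Tk1 gave -0.22 at D1 (adjusted p = 0.788), and Cdt1 gave 0.29 (adjusted p = 0.409). None of these passed the test.

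In forestomach no member was called at any dose, and none had an unadjusted p below 0.05 in a dose contrast. Of 35 members tested, 0 were called by limma at D1, D2 and D3, where 0%, 0.00928% and 0.0248% of all probes were called. A called slope was found for 0 members (1 unadjusted), beside 0.0309% of all probes (1670 of 32318 unadjusted). At D1 33 of 35 differences lay above 0, with a median of 0.20. At D2 the median was -0.01, and at D3 it was -0.06, with 27 below 0. The highest at D1 were Plk1 (0.39, SE 0.25, adjusted p = 0.931) and Ube2c, the ubiquitin-conjugating enzyme of the APC/C (0.38, SE 0.26, adjusted p = 0.931), which were also the highest at D2 (0.31 and 0.26). The lowest at D1 were Ccne1 (-0.06) and Mcm7 (-0.05), and at D2 Cdt1 (-0.33) and Mcm3 (-0.26). At D3 Mki67 (-0.40, SE 0.28) and Rrm2 (-0.35, SE 0.19) were lowest and Mcm6 (0.13) and Gins1 (0.09) highest, each with an adjusted p of 0.9995.

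Glandular stomach markers moved with these values. On the 10 arrays whose marker mean was above 4, the median over the tested members ran from -2.36 to -1.99 (median -2.09), and on the other 9 from -2.85 to -2.09 (median -2.52). Mki67 ran from -3.08 to -1.98 on the former (median -2.59) and from -3.70 to -2.33 on the latter (median -3.03), and Ccna2 from -2.51 to -1.49 and from -3.41 to -2.01. Mcm4 showed no such shift, with medians of -2.38 and -2.38. Pcna did, with medians of -2.28 and -2.56, as did Plk1 (-1.95 and -2.55) and Ube2c (-2.15 and -2.65). Of single members, only those named here were split in this way. All 5 D1 arrays were among the 10, so that at D1 dose and glandular markers cannot be separated, and all 6 arrays of slide 3 were among them too. Their part in the dose values was not tested beyond leaving the 10 arrays out, which gave 0 calls at D2 (median -0.10) and D3 (median -0.23) and no value for D1. The D0 contrasts then counted 22 genes higher against lung, and 21 higher and 1 lower against liver. Dim probes differed by slide as well: Cdc6 averaged -2.10, -1.95 and -1.14 on slides 1, 2 and 3, with 0 of the 6 arrays on the last slide detecting it.

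**Figure D5:**
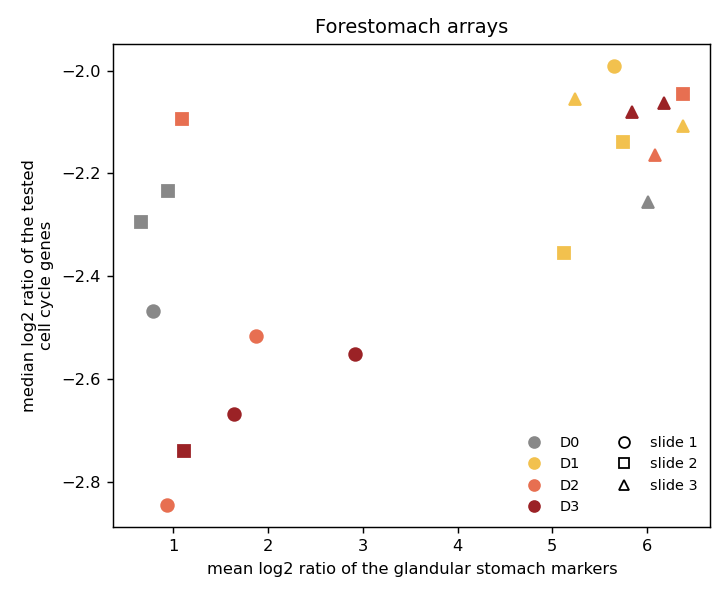
Median log2 ratio of the tested cell cycle genes (y axis) against the mean log2 ratio of 9 glandular stomach markers (x axis) for the 19 forestomach arrays, coloured by BaA dose group with the symbol giving the slide. The 10 arrays at the right, from 5.12 up, have medians of -2.36 to -1.99, and all 5 D1 arrays are among them.

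A wider set of 84 cell cycle genes in 4 lists was read in the same fits. At D0 forestomach was higher than lung for 14 of 22 further mitosis genes and 8 of 22 further replication genes, with 0 lower in either list. The G1 cyclin, E2F and regulator list gave 5 higher and 4 lower of 19, and the inhibitor list 3 higher and 4 lower of 14. Of all probes tested in this contrast, 14.9% were higher and 16.8% lower. With BaA, calls were few. In dose contrasts only Cdkn1a was called, the gene of p21, an inhibitor of cyclin-dependent kinases that p53 induces. It read -0.57, -0.54, -0.98, -0.87 and -0.26 in lung at D0 and -1.11, -0.64, -1.43, -0.86 and -0.92 at D1. At D2 it read -1.36, -1.19, -1.32, -1.03 and -1.81, and at D3 -1.37, -1.06, -1.23, -1.42 and -1.61.

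Every D2 and D3 array of Cdkn1a lay below every D0 array, and the differences were -0.70 at D2 (SE 0.16, adjusted p = 0.0306) and -0.69 at D3 (SE 0.16, adjusted p = 0.0112). A second probe, for another transcript of the gene, gave 0.03 and -0.08 and was not called. Both calls were lost with median centring (-0.05 at D2, adjusted p = 0.928, and -0.35 at D3, adjusted p = 0.952) and without the 3 arrays with squamous or high T cell markers (-0.60, adjusted p = 0.0976, and -0.68, adjusted p = 0.0537). The D2 call was also lost when only D0 and D2 were fitted (adjusted p = 0.0722) and when any 1 of mice 1, 2, 5, 11, 13 or 15 was left out.

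Slopes on dose were called in lung for 6 of the 78 genes tested from these lists (7.69%), beside the 11.0% of all probes, so that this share too was not above the background. They were Cdkn1a (-0.0084 per mg/kg-bw/day) and Hmmr (-0.0047), a spindle protein gene, and in the other direction Cdkn2c (0.0063), an inhibitor of Cdk4 and Cdk6, the DNA methyltransferase gene Dnmt1 (0.0033), Rpa1 (0.0034), which coats single-stranded DNA, and Rfc4 (0.0028), which loads the Pcna clamp. The call of Rfc4 was lost in 14 of the 20 fits that left out 1 array and that of Hmmr in 5 of 20, and both were lost without the 3 arrays with squamous or high T cell markers. In liver 2 of 66 were called, beside 0.908% of all probes: the G2 checkpoint kinase gene Wee1 (0.0177, adjusted p = 0.0452) and Rb1 (0.0041, adjusted p = 0.0276). With 1 array left out, the call of Wee1 was lost in 11 of 19 fits and that of Rb1 in 4 of 19. With median centring none of these 8 slopes was called. In forestomach limma called no slope among 82 genes (9 at an unadjusted p below 0.05, beside 1670 of all 32318 probes).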

How the data were processed

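Total RNA from random tissue sections was hybridised to Agilent SurePrint mouse arrays with 2 channels, tissue RNA in Cy5 and universal mouse reference RNA in Cy3, with no dye swap. The authors deposited log2 ratios, made by LOWESS within each array from median signals without background subtraction, and these were the values analysed. The deposited scanner files (Feature Extraction 10.7.3.1), whose intensity columns and log10 ratios give the Cy5 and Cy3 signals, served for the detection calls, for the slides and for the alternative scalings. LOWESS sets most probes of each array to a common level, so a shift shared by most genes would not be seen. The scanner files name mm9 as the build of the array grid, and no probe coordinates were used.

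Analysis used R 4.3.3, limma 3.58.1 with statmod 1.5.0, data.table (version 1.17.8), Python 3.11.15, pandas 2.3.3 and matplotlib 3.10.9. Array accessions were matched to symbols through RefSeq, and the probe well above background on the most arrays stood for its gene. Dose contrasts and slopes came from 1 limma fit per tissue, control contrasts and differences of D3 effects from 1 fit over all 12 groups, with Benjamini-Hochberg adjustment over all probes tested. A gene was called at an adjusted p of at most 0.05 and a fold of at least 1.5 (slopes: p alone). The study's own tool was not used here. Tissues of 1 mouse are paired by the mouse numbers in the labels. The deviations of such arrays from their group means correlated over probes by -0.046 to 0.208 between lung and liver, -0.132 to 0.224 between forestomach and lung and -0.109 to 0.13 between forestomach and liver. The fits were tested on simulated data. The member genes and the marker and pathway lists were chosen with earlier results of these data known. Named are all called members (of more than 8, the 4 largest each way), the 2 largest differences each way per dose contrast, and the smallest between control tissues. Of the other lists, called genes are named. Alternatives were the LOWESS of the median signals, normexp with an offset of 50, Agilent's processed signals, Cy5 alone, median centring, other filters on dim probes, all probes averaged, slide or mouse as a block, no minimum fold, only the groups compared, and each array left out. In contrasts between tissues, all arrays of a mouse were left out together. Leaving out 10 forestomach or 3 lung arrays by their markers was added after seeing the data.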

Additional observations from a re-analysis of the deposited data

Results flagged for a closer look

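Within groups of 4 to 5 arrays, 15 of 396 member groups (3.79%) held an array far from the others by Dixon's test, which chance gives in about 1 of 20 groups. In lung the arrays were D1 mouse 7, highest for Ccnb1 (-2.94) and Ccne1 (-1.52), D2 mouse 13, lowest for Mcm2 (-2.71), and D3 mouse 17, highest for Birc5 (-3.35) and for the T cell marker mean (1.59). Mouse 7 was the array that exceeded the other lung arrays for most members. In liver they were D0 mouse 5 for Tk1 (-1.33), D1 mouse 8 for Ccne1 (-0.709), D2 mouse 13, highest for Kif20a (-3.16) and Plk1 (-2.07), D3 mouse 16 for Rrm2 (highest, -3.92) and Tyms (lowest, -0.568), and D3 mouse 19 for Pcna (-3.25). In forestomach they were D0 mouse 3 for Cenpe (-3.58) and, at D1, mouse 10 for Rrm1 (-1.82), mouse 7 for Rrm2 (-2.85) and mouse 8 for Ube2c (-2.91).

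Of 96 groups of marker list means and array medians, 7 held such an array, and not all are named here. Among marker lists, D0 mouse 2 stood apart in forestomach for glandular stomach (6.01), D0 mouse 5 in lung for squamous epithelium (3.31) and D2 mouse 14 in lung for B cells (1.55). The D3 effect on Mcm7 differed between forestomach and lung by -0.66, tested as an interaction. The part of tissue carry-over, slide or handling in these values was not tested.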

How the results depend on the processing

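The control contrasts held best. A replicate block on mouse left the counts at 23 higher and 1 lower for forestomach against liver, 21 higher against lung, and 11 higher and 3 lower for lung against liver, and Mcm7 differed between the D3 effects of forestomach and lung by -0.66, so the block changed no call. Each mouse left out, with all its arrays, gave 21 to 25, 20 to 21 and 14 to 15 calls. Median centring, which sets no curve through the signal, changed most: 9 calls for lung against liver, 0 at D3 in lung, 0 lung slopes, 0 differences of D3 effects between forestomach and lung, and medians over the members of 0.30 and 0.45 at D1 and D2 in lung, -0.13 and -0.0048 at D2 and D3 in liver and 0.25 at D2 in forestomach. Agilent's processed signals gave 2 calls at D3 in lung, 6 lung slopes and medians of -0.0549 and -0.0119 at D2 and D3 in liver. Cy5 alone gave 6 lung slopes, 1 forestomach slope and a median of 0.05 at D2 in liver, and slide as a block gave 5 lung slopes. With no minimum fold, 1 member was called at D2 and 3 at D3 in lung, and 1 in the difference of D3 effects between lung and liver. Without the 3 lung arrays with squamous or high T cell markers there were 0 calls at D3 in lung and 0 differences between forestomach and lung. Leaving out single arrays gave 0 to 1 calls at D2 in lung (1 without D0 mouse 4), 0 to 1 at D3 (0 without D0 mouse 2 or D3 mouse 19) and 3 to 5 lung slopes (5 without mouse 7 or 16). Leaving out all arrays of a mouse gave 0 to 1 differences of D3 effects between forestomach and lung. The causes were not tested.

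Values that changed sign, all but Gins1 not called: with median centring Gins1 between forestomach and liver at D0 (0.43), Plk1 between lung and liver (0.0616), Aurka (0.0517) at D3, Ccnb1 (0.15) and Kif11 (0.12) at D2 and Cdk1 (0.10) and Prc1 (0.17) at D1 in lung, Mcm3 (0.0133) at D2 and Gins1 (-0.013) at D3 in forestomach. Cdk1 at D1 in lung was 0.43 with processed signals and 0.14 with Cy5 alone. Mcm7 at D1 in forestomach was 0.0168 and 0.0017. Birc5 at D3 in liver was 0.0258 over all its probes. Without glandular arrays Cdc6 between forestomach and lung was -0.0916 and Gins1 at D3 in forestomach -0.0739. Leaving out all arrays of a mouse gave -0.17 to 0.35 for Cdc6 between forestomach and lung. For Plk1 it gave -0.0566 to 0.17 between forestomach and liver and -0.23 to 0.0257 between lung and liver. Leaving out single arrays gave -0.34 to 0.0037 for Cdk1 at D1 in lung. In forestomach it gave -0.15 to 0.0798 for Ccne1 and -0.0825 to 0.0085 for Mcm7 at D1, and -0.0015 to 0.24 for Mcm6 and -0.0076 to 0.16 for Gins1 at D3.

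Of 1346 gene values under other settings, 1272 kept direction and call, as did 2186 of 2254 with an array or a mouse left out. These counts are no measure of robustness. They include values that were not called under either setting, and some settings, such as no minimum fold, leave the estimate as it was. With median centring 84 of 114 values kept direction and call. The number of arrays, and signals near background for genes such as Cdk1 and Cdc6, limit precision.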
